A study of Arabidopsis thaliana with 9 samples.

Results

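The comparison was between Arabidopsis thaliana seedlings carrying the ssrp1-2 allele and seedlings carrying the spt16-1 allele, set directly against each other. Arrays were chosen by their titles, which gave 6 of the 9 arrays in the study: 3 of ssrp1-2 and 3 of spt16-1. The remaining 3 arrays, of Col-0 wild type, are given beside them for orientation. Plants of each genotype were in the Col-0 background and grew for 10 days on 0.5 MS plates under 100 µmol light, and every array carried RNA of pooled aerial parts, with about 100 mg of tissue per pool. The labels call the arrays of a genotype biological replicates but do not state whether the pools were sown separately, so a p-value here measures how pools differ. The kind of lesion in ssrp1-2 and spt16-1, and how much of each protein remains, is not stated in the labels. The question was which genes separate plants affected in one FACT subunit from plants affected in the other.

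SSRP1 and SPT16 form FACT, a histone chaperone that loosens and restores nucleosomes as RNA polymerase II passes through a gene. SPT16 binds histones H2A and H2B through several domains. SSRP1 contacts DNA as well, in plants through a high mobility group box.

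Values are log2 expression values made by the submitters with RMA, which removes background, brings all arrays to one distribution and joins the probes that belong together into 1 value. A difference is the ssrp1-2 mean minus the spt16-1 mean, so a positive value means higher in ssrp1-2. The array held 28501 probe sets, of which 16722 were annotated with exactly 1 gene and are described here. Array medians lay between 4.95 and 4.98. Across probe sets, pairs of 1 ssrp1-2 and 1 spt16-1 array correlated at r = 0.9905 to 0.9918, against 0.9919 to 0.9926 among ssrp1-2 arrays and 0.9934 to 0.9943 among spt16-1 arrays. SSRP1 and SPT16 themselves had no probe set of their own among these, so the mutated genes' own levels were not analysed here and could not be set against the genotypes. The tissue label was set against marker genes. LHB1B2, a light-harvesting chlorophyll-binding protein of green tissue, was near the top of the scale at 10.93 ± 0.18 in ssrp1-2, 11.10 ± 0.10 in spt16-1 and 11.21 ± 0.09 in Col-0 (SD, n = 3 each). None of the measured markers of roots (5 genes), pollen (4), seeds (3), guard cells (4), trichomes (3) or the shoot meristem (3) differed between the mutants by the test below. PYK10, from the root list, was about as high as LHB1B2, at 10.84 ± 0.09 in ssrp1-2, 11.31 ± 0.25 in spt16-1 and 11.21 ± 0.08 in Col-0. The marker levels therefore did not settle the tissue label. The 3 meristem markers lay under 3.13, the upper limit of the lowest 25% of probe sets, in which a signal above background was not shown.

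The mutants differed in a small set of genes, and the largest differences were genes high in spt16-1. By limma, a probe set passed when its two-sided p, adjusted by the Benjamini-Hochberg method over all 28501 probe sets, was under 0.05. Of the 16722 one-gene probe sets, 99 passed (0.592%). Of these, 62 were higher in ssrp1-2 (0.371%) and 37 lower (0.221%). At least 2-fold differences were found for 11 higher and 11 lower genes, and at least 3-fold for 1 higher and 4 lower genes. Among all probe sets, named or not, 238 passed (0.835%). At an unadjusted p under 0.05, 1032 one-gene probe sets were higher and 822 lower. In each of the 99 genes the 3 ssrp1-2 values and the 3 spt16-1 values did not overlap, which the threshold itself makes likely. Genes that did not pass could show the same, as HTB2 and CML38 did. The share without overlap among all one-gene probe sets is not given here. Passing genes had a median absolute difference of 0.69 when higher and 0.73 when lower, against 0.10 over all one-gene probe sets. The count was sensitive to single arrays: omission of ssrp1-2 replicate 1, 2 or 3 left 58, 40 or 46 genes, and omission of spt16-1 replicate 1, 2 or 3 left 38, 48 or 38. It was 34 when only the 6 mutant arrays were fitted. All 99 differences kept their sign in each of the 16 alternative fits. This is no separate evidence, because the mutant arrays did not overlap and several fits reuse the same mean difference. In the fits without 1 mutant array, 24 genes (14 higher, 10 lower) passed whichever array was left out.

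**Figure D1:**
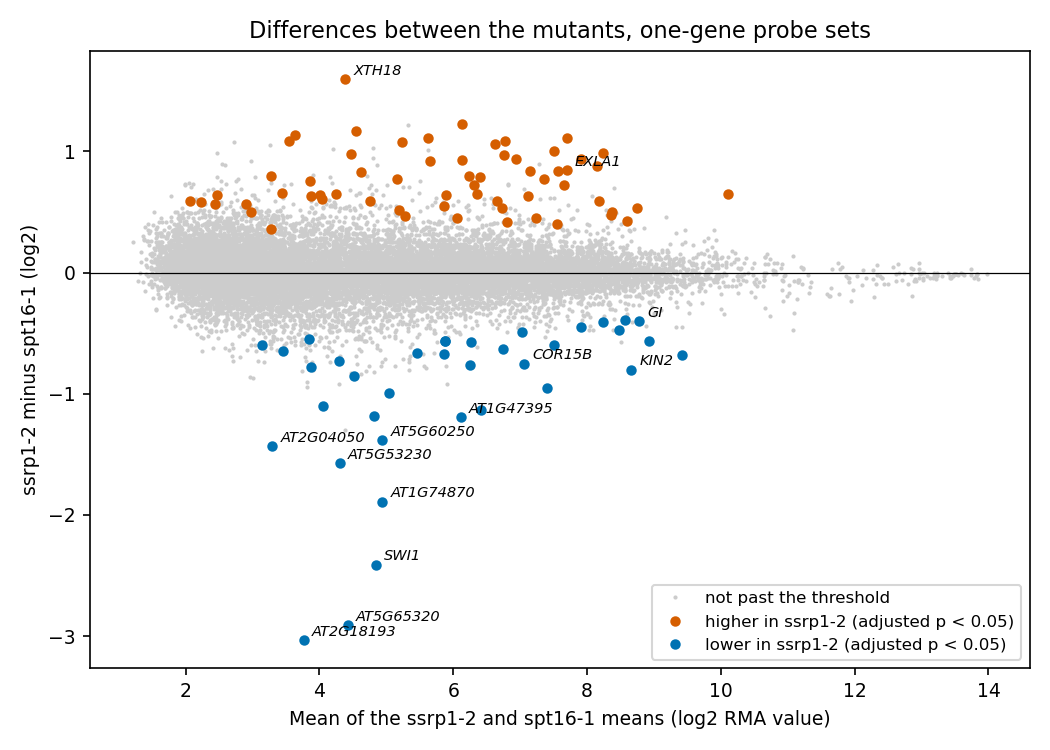
Each point is a one-gene probe set. The x axis is the mean of the ssrp1-2 and spt16-1 group means (log2 RMA value) and the y axis is ssrp1-2 minus spt16-1 (log2). The 62 genes higher in ssrp1-2 are orange, the 37 lower are blue and the rest grey; the higher genes reach 1.60 (XTH18) and the lower genes reach -3.03 (AT2G18193).

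AT2G18193, AT5G65320 and SWI1 had the largest differences of all. AT2G18193, which encodes an AAA-type ATPase, had 2.05, 2.46 and 2.25 in ssrp1-2, against 5.41, 5.22 and 5.22 in spt16-1 and 2.1, 2.46 and 2.09 in Col-0. The ssrp1-2 arrays covered the range of the Col-0 arrays, and all spt16-1 arrays lay far above both (difference -3.03, SE 0.13, adjusted p = 1.36e-04 by limma). AT5G65320, a gene of the basic helix-loop-helix transcription factor family, had 3.0, 3.14 and 2.78 in ssrp1-2, against 6.13, 5.96 and 5.55 in spt16-1 and 2.78, 3.01 and 2.65 in Col-0. Again the spt16-1 arrays stood above the other 6 (difference -2.91, SE 0.16, adjusted p = 2.54e-04). For these genes the means of ssrp1-2 and Col-0 were under 3.13, so no fold is given and the differences may understate the contrast. SWI1, which organises sister chromatids in meiosis, had 3.49, 4.0 and 3.42 in ssrp1-2, against 6.26, 5.93 and 5.95 in spt16-1 and 3.17, 3.45 and 3.28 in Col-0. The ssrp1-2 values lay close to those of Col-0, with replicate 2 above the others, and the spt16-1 values were all higher (5.32-fold higher in spt16-1, difference -2.41, SE 0.16, adjusted p = 7.71e-04). These 3 calls held without any 1 mutant array, with adjusted p up to 0.00234, 0.00462 and 0.00688. Since the samples were whole aerial parts, a change in the number of cells that express a gene and a change in RNA per cell cannot be told apart.

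Further genes known here by locus tag alone were also higher in spt16-1, with ssrp1-2 near the Col-0 level in some and above it in others. AT1G74870 had 3.64, 4.15 and 4.17 in ssrp1-2, against 5.71, 6.11 and 5.81 in spt16-1 and 4.31, 3.63 and 3.57 in Col-0. Values of ssrp1-2 and Col-0 overlapped and those of spt16-1 did not reach down to them (difference -1.89, adjusted p = 0.00758). AT5G53230 had 3.36, 3.74 and 3.46 in ssrp1-2, against 5.23, 5.29 and 4.75 in spt16-1 and 3.49, 3.62 and 3.57 in Col-0 (difference -1.57, adjusted p = 0.00343). AT5G60250 had 4.38, 4.29 and 4.09 in ssrp1-2, against 5.54, 5.45 and 5.89 in spt16-1 and 4.22, 4.05 and 4.07 in Col-0 (difference -1.38, adjusted p = 0.0032). In both genes the spt16-1 arrays were apart from the other 6. AT4G33930 differed by -1.13 (adjusted p = 0.00486) and AT4G30650 by -0.95 (adjusted p = 0.002). In this pair of genes ssrp1-2 stood above Col-0 and spt16-1 higher still, with means of 5.85, 6.98 and 5.02 for AT4G33930 and of 6.92, 7.87 and 6.43 for AT4G30650 in ssrp1-2, spt16-1 and Col-0. The calls of these 5 genes held without any 1 mutant array.

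Some of the lower genes depended on single arrays. AT2G04050 had 2.05, 3.03 and 2.68 in ssrp1-2, against 3.89, 4.10 and 4.05 in spt16-1 and 2.6, 3.0 and 3.05 in Col-0 (difference -1.43, adjusted p = 0.0303). Values in ssrp1-2 and Col-0 overlapped, and both means were under 3.13. Omission of ssrp1-2 replicate 3 or of any spt16-1 array ended its call (highest adjusted p 0.115). AT1G17960 differed by -1.10 (adjusted p = 0.0168) with means of 3.51 ± 0.26 in ssrp1-2, 4.60 ± 0.17 in spt16-1 and 3.48 ± 0.18 in Col-0 (SD, n = 3 each). That call was lost without ssrp1-2 replicate 1 or spt16-1 replicate 1 or 2 (adjusted p up to 0.0792). AT2G21640 differed by -0.99 (adjusted p = 0.0447) and lost its call without any 1 mutant array (adjusted p up to 0.15).

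**Figure D2:**
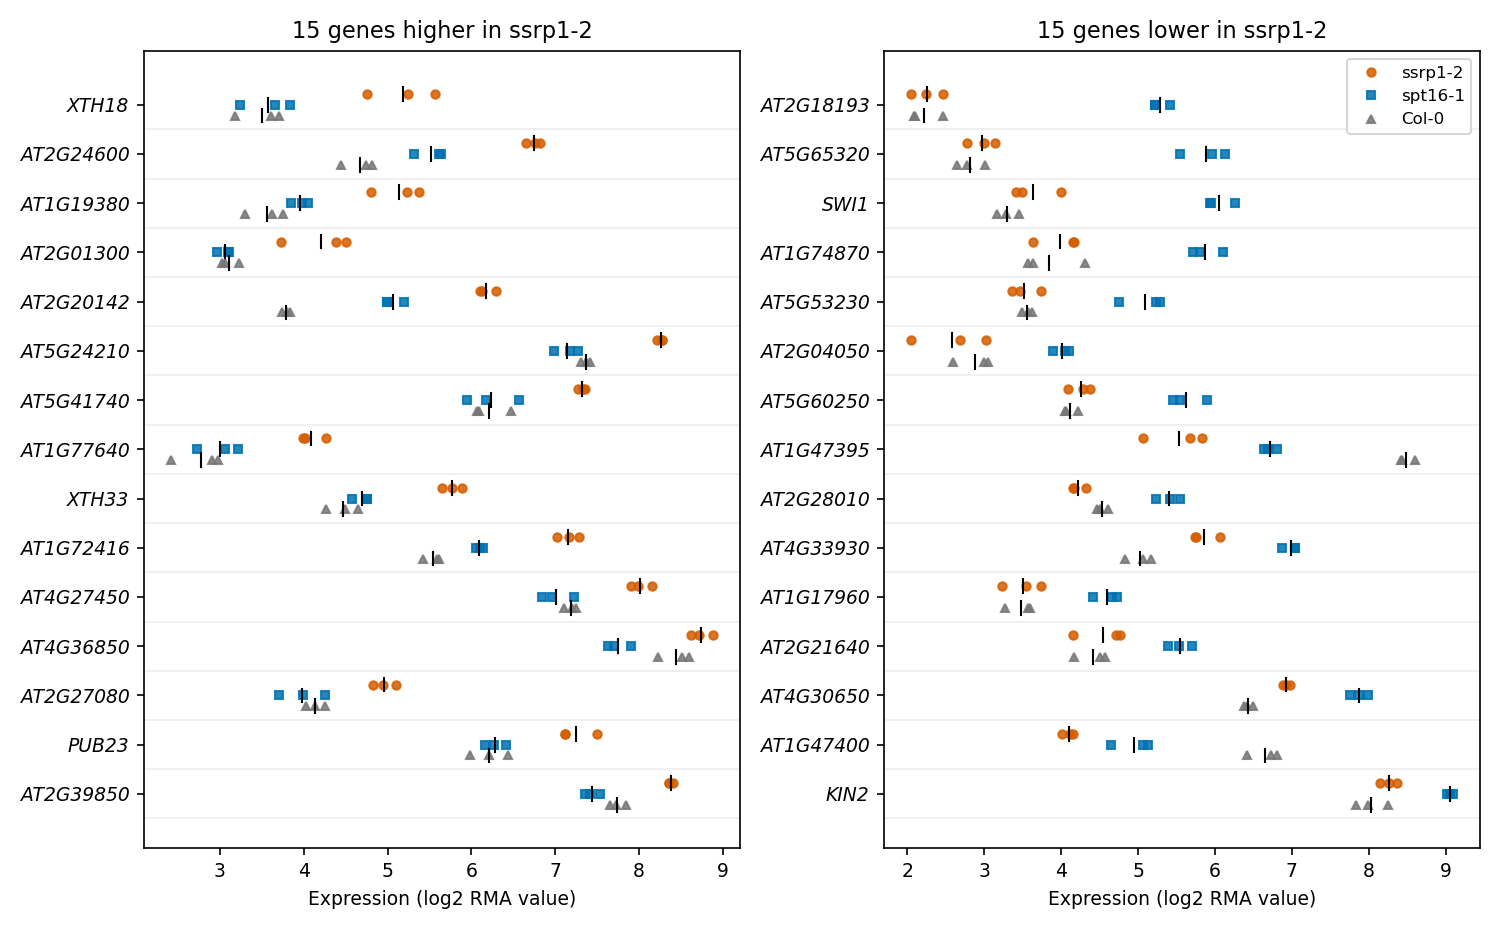
Expression (log2 RMA value, x axis) of the 15 higher and 15 lower passing genes with the largest differences, in every array; circles are ssrp1-2, squares spt16-1 and triangles Col-0, and black ticks are group means. In AT2G18193, AT5G65320 and SWI1 ssrp1-2 lies near Col-0 and spt16-1 stands apart, while in AT1G47395 and AT1G47400 Col-0 lies above both mutants.

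Genes higher in ssrp1-2 showed smaller differences. AT2G24600 had 6.76, 6.82 and 6.65 in ssrp1-2, against 5.31, 5.64 and 5.61 in spt16-1 and 4.74, 4.82 and 4.45 in Col-0. The genotypes formed 3 separate levels with ssrp1-2 on top (2.34-fold, difference 1.23, SE 0.12, adjusted p = 0.00386 by limma). AT2G20142, whose product carries the TIR domain known from plant immune receptors, had 6.10, 6.29 and 6.13 in ssrp1-2, against 4.99, 5.20 and 4.99 in spt16-1 and 3.80, 3.84 and 3.74 in Col-0. It showed the same 3 levels (2.16-fold, difference 1.11, SE 0.09, adjusted p = 0.00166). AT1G72416 had 7.16, 7.29 and 7.02 in ssrp1-2, against 6.05, 6.10 and 6.14 in spt16-1 and 5.42, 5.62 and 5.59 in Col-0 (difference 1.06, adjusted p = 0.00203). Here too spt16-1 lay between ssrp1-2 and Col-0. AT5G24210 had 8.28, 8.22 and 8.27 in ssrp1-2, against 7.27, 7.18 and 6.98 in spt16-1 and 7.42, 7.31 and 7.37 in Col-0 (difference 1.11, adjusted p = 0.00144). In that gene spt16-1 was the lowest genotype and ssrp1-2 stood above the rest. AT4G27450 differed by 1.00 (adjusted p = 0.00576), with 8.01 ± 0.13 in ssrp1-2, 7.01 ± 0.20 in spt16-1 and 7.19 ± 0.07 in Col-0 (SD, n = 3 each). The calls of these 5 genes held without any 1 mutant array.

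Other large differences in this direction were less firm. AT1G19380 (1.17, adjusted p = 0.0169) lost its call when any mutant array but ssrp1-2 replicate 1 was omitted (highest adjusted p 0.0761), and so did AT2G01300 (1.14, adjusted p = 0.0281, up to 0.112). AT5G41740 (1.09, adjusted p = 0.0229) lost it without any mutant array other than spt16-1 replicate 2 (up to 0.0935). For AT1G77640 (1.09, adjusted p = 0.0312) any 1 mutant array was enough (up to 0.11). AT2G27080 (0.98, adjusted p = 0.0189) lost it without any 1 of the ssrp1-2 arrays or without spt16-1 replicate 3 (up to 0.0812). The spt16-1 means of AT2G01300 and AT1G77640, 3.06 and 3.0, were under 3.13. Their ssrp1-2 means were 4.20 and 4.09 and their Col-0 means 3.11 and 2.77.

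Of the gene lists examined, the one for cell wall loosening had the most passing members. All lists, here and below, were chosen with earlier results of these data known. Shares over all one-gene probe sets are therefore given for scale and are no test of a list. Plant cells expand when expansins loosen contacts between cellulose and other polymers and when xyloglucan endotransglucosylase/hydrolases (XTH enzymes) cut and rejoin the xyloglucan chains that tie cellulose together. Of 34 measured genes of these families, 4 were higher in ssrp1-2, 1 was lower and 29 did not pass, with a median difference of 0.00, against 0.01 over all one-gene probe sets, where 0.592% passed. As many members lay above 0 as below, 17 each.

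XTH33, an XTH enzyme, had 5.89, 5.77 and 5.65 in ssrp1-2, against 4.58, 4.75 and 4.75 in spt16-1 and 4.65, 4.27 and 4.49 in Col-0. All ssrp1-2 arrays lay above the other 6, in which spt16-1 and Col-0 overlapped (2.11-fold, difference 1.08, SE 0.11, adjusted p = 0.00444). EXLA1, an expansin-like protein, had 8.10, 8.04 and 8.23 in ssrp1-2, against 7.20, 7.38 and 7.24 in spt16-1 and 6.92, 7.05 and 6.91 in Col-0. The genotypes did not overlap, and ssrp1-2 was again highest (1.80-fold, difference 0.85, SE 0.08, adjusted p = 0.00366). EXGT-A3, another XTH enzyme, had 8.98, 9.02 and 9.03 in ssrp1-2, against 8.54, 8.47 and 8.43 in spt16-1 and 8.71, 8.78 and 8.71 in Col-0. Col-0 lay between the mutants without overlap (difference 0.53, SE 0.06, adjusted p = 0.00853). These 3 calls held without any 1 mutant array (adjusted p up to 0.0286, 0.0213 and 0.0425).

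XTH18 had the largest difference of any gene higher in ssrp1-2, but also a wide spread. It had 4.75, 5.57 and 5.24 in ssrp1-2, against 3.24, 3.66 and 3.84 in spt16-1 and 3.18, 3.71 and 3.61 in Col-0. The ssrp1-2 arrays stood apart, while spt16-1 and Col-0 overlapped (3.04-fold, difference 1.60, SE 0.24, adjusted p = 0.0227). Omission of any mutant array but ssrp1-2 replicate 1 ended the call (highest adjusted p 0.0895). Its neighbour XTH19 had a difference of 0.37 and an adjusted p of 0.492, and probes shared between these related genes would make their separate values uncertain. EXPA15, an alpha-expansin, went the other way, with 5.54, 5.57 and 5.45 in ssrp1-2, against 6.14, 6.02 and 6.40 in spt16-1 and 6.18, 6.17 and 6.13 in Col-0. Here ssrp1-2 was the low genotype and spt16-1 overlapped with Col-0 (difference -0.67, SE 0.10, adjusted p = 0.0218). Its call was lost without any 1 of the ssrp1-2 arrays or without spt16-1 replicate 1 (adjusted p up to 0.0892). Among members that did not pass, EXLA2 had 0.45 (adjusted p = 0.391), EXPA4 -0.37 (0.38) and EXPB3 -0.28 (0.141).

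**Figure D3:**
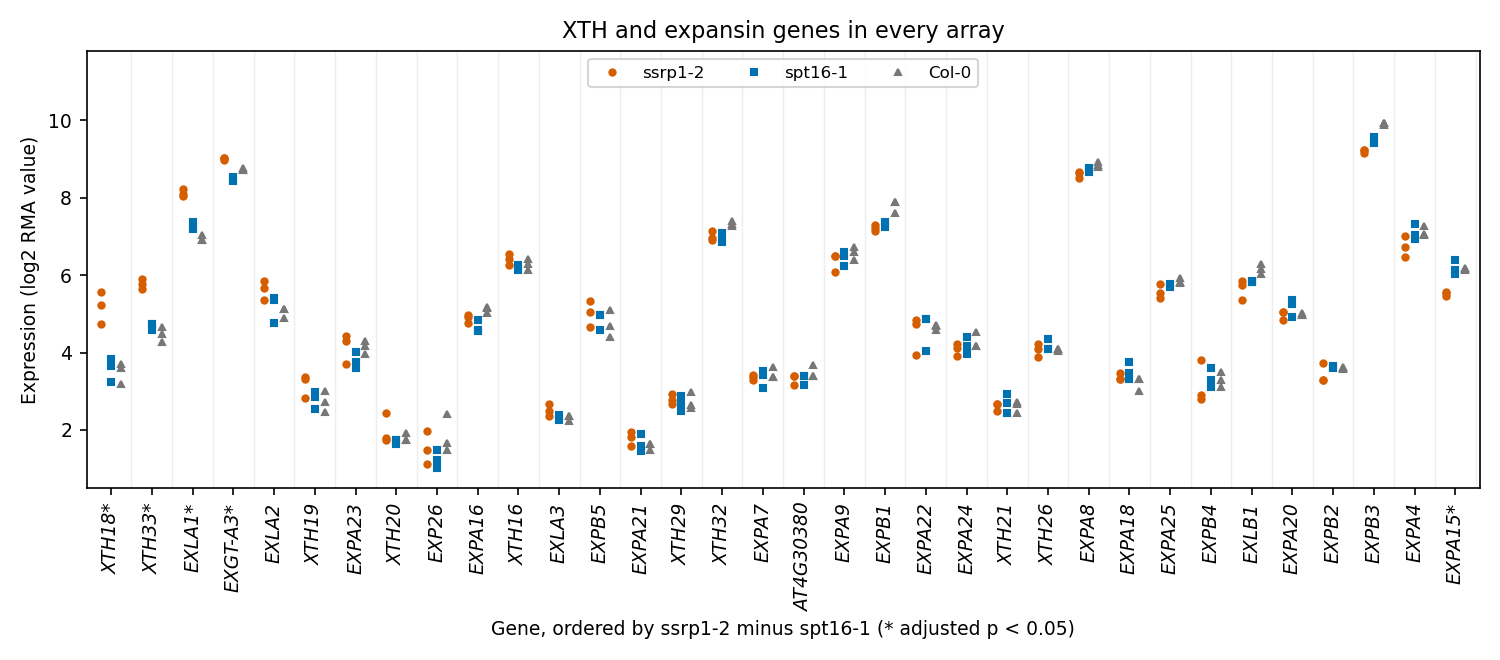
Expression (log2 RMA value, y axis) of the 34 measured XTH and expansin genes in every array, ordered along the x axis by ssrp1-2 minus spt16-1; circles are ssrp1-2, squares spt16-1 and triangles Col-0. The 4 genes at the left with an asterisk (XTH18, XTH33, EXLA1 and EXGT-A3) were higher in ssrp1-2 and EXPA15, at the right, was lower.

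STZ and PUB23, genes that respond within minutes to touch, wounding or pathogen signals, were higher in ssrp1-2. The list of such genes held 103 names, most of which matched no one-gene probe set. It was chosen with earlier results of these data known, so its counts are a description only. Of 15 measured genes of this kind, 2 were higher in ssrp1-2, against 0.371% of all one-gene probe sets, none was lower and 13 did not pass. The median difference of the 15 was 0.21, against 0.01 over all, and lay between 0.21 and 0.52 in the alternatives. Above 0 were 14 of the 15, against 8690 of 16722, and 3 of the 15 lay under 3.13. STZ, a zinc-finger repressor induced by drought, salt and cold, had 7.88, 8.01 and 8.05 in ssrp1-2, against 7.11, 7.35 and 6.95 in spt16-1 and 5.74, 6.02 and 6.0 in Col-0. The 3 genotypes formed separate levels (difference 0.84, SE 0.12, adjusted p = 0.0178). PUB23, a U-box ubiquitin ligase that dampens immune signalling, had 7.12, 7.50 and 7.12 in ssrp1-2, against 6.41, 6.16 and 6.27 in spt16-1 and 6.44, 5.98 and 6.21 in Col-0. The spt16-1 and Col-0 values overlapped and ssrp1-2 was above both (difference 0.97, SE 0.14, adjusted p = 0.0232). The STZ call was lost without ssrp1-2 replicate 2 or 3 or spt16-1 replicate 1 or 3 (adjusted p up to 0.0821), and the PUB23 call without any 1 mutant array (up to 0.0932).

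Further members of the group had differences of similar size that did not pass. ZAT7, a zinc-finger factor related to STZ, had 1.14 (SE 0.33, adjusted p = 0.2), and CML38, a calmodulin-like calcium sensor, had 1.02 (SE 0.25, adjusted p = 0.135). EXO, a growth-related protein, had 0.61 (0.221), WRKY22, a transcription factor of immune signalling, had 0.57 (0.15), and PUB22, the closest relative of PUB23, had 0.46 (0.123). Of 10 measured U-box ligases, PUB22, PUB23 and PUB24 among them, PUB23 alone passed, against 0.592% of all one-gene probe sets. Above 0 were 9 of the 10, against 8690 of 16722 (median 0.11, between 0.09 and 0.31 in the alternatives). Of the 10 genes 5 lay under 3.13, where a signal above background was not shown. PUB24, which acts with PUB22 and PUB23, had 0.13. PUP18, a member of the purine permease family, had 6.13, 6.21 and 6.02 in ssrp1-2, against 5.04, 5.07 and 5.49 in spt16-1 and 4.84, 4.89 and 5.06 in Col-0. All ssrp1-2 arrays were above the others, where spt16-1 and Col-0 overlapped (difference 0.92, adjusted p = 0.0168). Its call was lost without ssrp1-2 replicate 1 or 2 or spt16-1 replicate 1 or 2 (adjusted p up to 0.0731). GT2, a trihelix transcription factor, had a small difference of 0.40 (adjusted p = 0.0478) that was lost without any 1 mutant array (up to 0.151). A second probe set of GT2 had -0.14 (adjusted p = 0.936), so its probe sets disagreed.

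The cold-inducible genes KIN2 and COR15B were lower in ssrp1-2 than in spt16-1. Proteins of the COR and KIN families accumulate in the cold and under abscisic acid and protect membranes and enzymes from freezing and drying. The list held 57 names and was chosen with earlier results of these data known, so its counts are a description only. Of 7 measured genes, 2 were lower in ssrp1-2, against 0.221% of all one-gene probe sets, none was higher and 5 did not pass. Their median was -0.31, against 0.01 over all, and lay between -0.37 and -0.19 in the alternatives. Below 0 were 6 of the 7, against 8024 of 16722, and CCR2 was above it (0.14, adjusted p = 0.717). Of the 7 genes 1 lay under 3.13. KIN2 had 8.37, 8.26 and 8.14 in ssrp1-2, against 9.01, 9.06 and 9.09 in spt16-1 and 8.25, 7.83 and 7.99 in Col-0. Values of ssrp1-2 and Col-0 overlapped and the spt16-1 arrays were close together above them (1.74-fold higher in spt16-1, difference -0.80, SE 0.11, adjusted p = 0.0169). COR15B, which protects the chloroplast, had 6.76, 6.59 and 6.70 in ssrp1-2, against 7.21, 7.66 and 7.44 in spt16-1 and 6.46, 6.32 and 6.41 in Col-0. The genotypes did not overlap, with ssrp1-2 the nearer of the mutants to Col-0 (difference -0.75, SE 0.11, adjusted p = 0.0238). Their related neighbours COR15A and KIN1 had -0.36 (adjusted p = 0.207) and -0.11 (0.856), and shared probes could blur such pairs. The KIN2 call was lost without any mutant array other than ssrp1-2 replicate 1 (up to 0.0805), and the COR15B call without any other than spt16-1 replicate 1 (up to 0.0877).

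Iron-deficiency genes were lower in ssrp1-2 in a neighbouring pair. AT1G47395 and AT1G47400 encode small peptides that signal iron need. AT1G47395 had 5.83, 5.68 and 5.07 in ssrp1-2, against 6.69, 6.64 and 6.81 in spt16-1 and 8.43, 8.42 and 8.6 in Col-0. AT1G47400 had 4.12, 4.01 and 4.16 in ssrp1-2, against 5.06, 4.65 and 5.13 in spt16-1 and 6.73, 6.42 and 6.80 in Col-0. In both genes Col-0 was highest, spt16-1 lay in the middle and ssrp1-2 was lowest, without overlap. The differences were -1.19 (SE 0.17, adjusted p = 0.0218) and -0.85 (SE 0.14, adjusted p = 0.0371). The AT1G47395 call ended on omission of ssrp1-2 replicate 2 or of any spt16-1 array (highest adjusted p 0.0866), and the AT1G47400 call without any mutant array other than spt16-1 replicate 2 (up to 0.132). The iron list held 59 names and was also chosen with earlier results of these data known, so its counts are a description only. Of 7 measured iron genes 2, AT1G47395 and AT1G47400, passed, against 0.221% of all one-gene probe sets in that direction, and 5 did not. Their median was -0.24, against 0.01 over all, and lay between -0.36 and -0.14 in the alternatives, with 6 of 7 below 0, against 8024 of 16722. AT2G14247 had the same order of genotypes (means of 5.45, 6.37 and 8.17 in ssrp1-2, spt16-1 and Col-0) but did not pass (-0.92, adjusted p = 0.0839). The transcription factor gene BHLH101, which acts in the iron response, was at 5.01 in ssrp1-2 and 5.11 in spt16-1, against 6.85 in Col-0 (difference -0.10, SE 0.21, adjusted p = 0.895). PYE, another regulator of iron homeostasis, had -0.24 (0.512).

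SWI1 was the exception in its own group. Of 14 measured genes of meiosis and the germline, from a list of 52 names, it alone passed. The median was -0.02, against 0.01 over all one-gene probe sets. SDS, a cyclin of meiosis, had -0.04, the synaptonemal complex proteins ZYP1a and ZYP1b had -0.12 and -0.05, and ATSPO11-1, which makes meiotic DNA breaks, had 0.03. EMS1, a receptor kinase of the anther, had 0.66 without passing (adjusted p = 0.163). Of these 14 genes 4 lay under 3.13.

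The remaining annotated calls were single, mostly small differences, each lower in ssrp1-2. GI, a protein of the circadian clock and of flowering, had 8.56, 8.56 and 8.63 in ssrp1-2, against 8.92, 9.06 and 8.95 in spt16-1 and 7.74, 7.75 and 7.82 in Col-0. The genotypes formed 3 separate levels with spt16-1 on top (difference -0.40, SE 0.07, adjusted p = 0.0385). PWD, the phosphoglucan water dikinase of starch breakdown, had -0.39 (adjusted p = 0.0342) at its locus AT5G26570. GAMMA-VPE, a vacuolar processing protease, had 8.29, 8.27 and 8.18 in ssrp1-2, against 8.85, 8.71 and 8.59 in spt16-1 and 8.32, 8.23 and 8.18 in Col-0. Values of ssrp1-2 and Col-0 overlapped below those of spt16-1 (difference -0.47, adjusted p = 0.0437). LCR69, a small cysteine-rich peptide of the defensin class, had -0.56 (adjusted p = 0.0345). All 4 calls were lost without any 1 mutant array, with adjusted p up to 0.12 for GI, 0.118 for PWD, 0.139 for GAMMA-VPE and 0.118 for LCR69. AT1G56300, which encodes a J-domain protein, was among the most expressed of the lower genes, with 9.09, 9.04 and 9.12 in ssrp1-2, against 9.85, 9.78 and 9.65 in spt16-1 and 7.86, 7.65 and 7.81 in Col-0. It showed the same 3 levels as GI (difference -0.68, adjusted p = 0.01), and without ssrp1-2 replicate 2 its adjusted p was 0.0511. AT1G56300 was named after its values were seen.

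Most gene lists had no passing member. Of 49 gene lists with a measured gene, 36 had none, and the 23 of these with at least 4 measured genes had medians between -0.17 and 0.16. Over all one-gene probe sets 0.592% passed, so a short list would mostly hold none, and these counts do not describe the functions. Matching by symbol also took in unrelated genes, such as the chloroplast ribosomal protein genes rps2 and rps4 in the salicylic acid list. It left out genes known by locus tag alone. AT5G65320, of the basic helix-loop-helix family, passed but was missing from the list of that family, in which no gene passed. The list of TIR-domain genes held no measured gene, although AT2G20142 passed. A list without a passing member therefore does not mean a family without one. Anthocyanin and flavonol enzymes, which make the red pigments and sunscreens of the seedling, had 14 measured genes from 58 names and a median of -0.02. DFR, the dihydroflavonol reductase that commits the pathway to pigments, was at 8.72 in ssrp1-2 and 8.81 in spt16-1, against 10.08 in Col-0 (difference -0.08, SE 0.14, adjusted p = 0.863). The acyltransferase genes AT1G03940 and AT5MAT had -0.61 (adjusted p = 0.121) and -0.46 (0.114). Sugar transporters (16 genes) had a median of 0.15, with 13 above 0, against 8690 of 16722 over all. Of the 16 genes 7 lay under 3.13, where a signal above background was not shown. The cytochrome P450 list (30 genes) had a median of 0.01. It was matched by CYP symbols and so also holds some cyclophilins, CYP59, CYP71 and SQN among them. UDP-glycosyltransferases (55) had a median of -0.06 and glutathione S-transferases (15) of 0.04. A miss of the threshold in these lists does not show equal levels.

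No organelle gene or histone gene passed, where 0.592% of all one-gene probe sets did, so lists of this size would hold few or none. Of 63 chloroplast-encoded genes 48 were below 0, against 8024 of 16722 over all, with a median of -0.01. Of 18 mitochondrion-encoded genes none passed and 17 were below 0, with a median of -0.08. The smallest p among the mitochondrial genes was that of ccb382, at 8.81 ± 0.13 in ssrp1-2, 9.07 ± 0.04 in spt16-1 and 9.05 ± 0.06 in Col-0 (SD, n = 3 each; difference -0.25, adjusted p = 0.251). Histone genes (7) had a median of -0.17, and HTB2, a histone H2B gene, had 7.08, 6.96 and 7.05 in ssrp1-2, against 7.20, 7.20 and 7.21 in spt16-1 and 7.16, 7.26 and 7.28 in Col-0 (difference -0.17, adjusted p = 0.341). Other histone chaperones and factors of transcript elongation (4) had a median of -0.06, and the histone chaperone gene SGA2 had -0.27 (adjusted p = 0.198). Small cysteine-rich peptides (90 genes, 77 of them under 3.13) had a median of 0.09, which turned to as low as -0.19 in the alternatives.

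**Figure D4:**
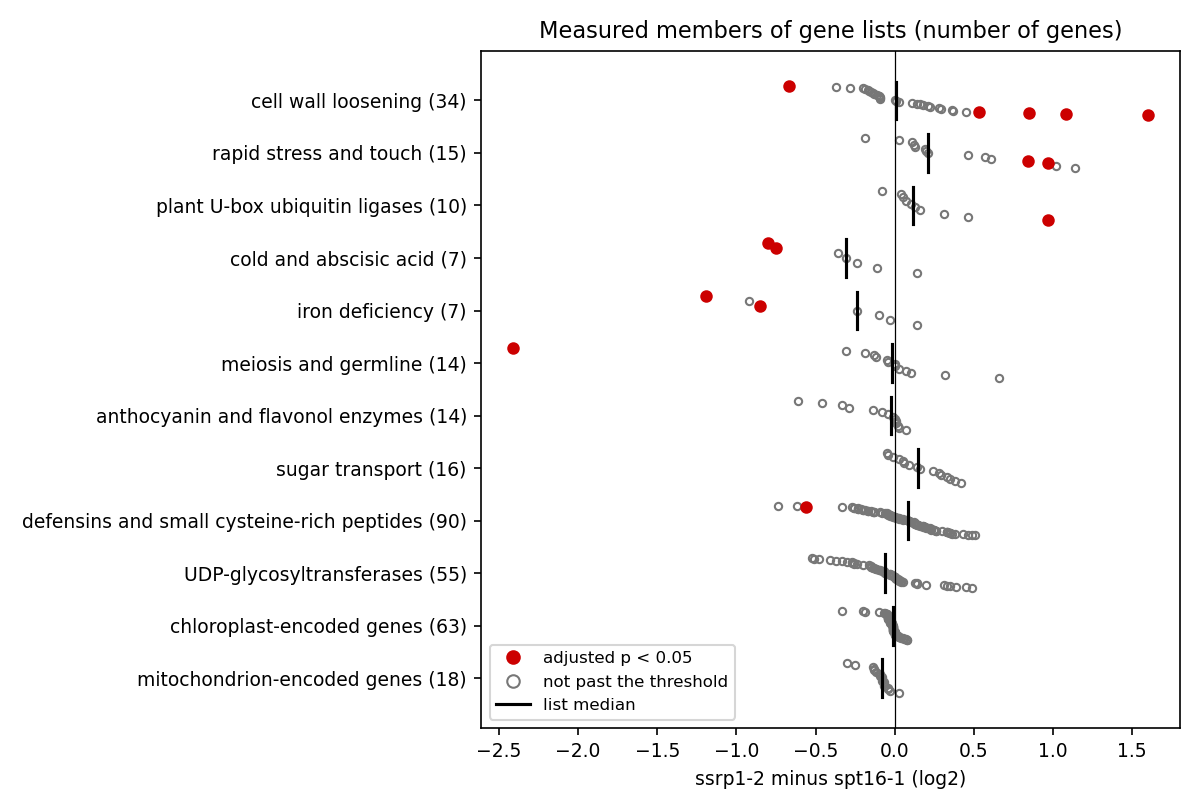
Differences (ssrp1-2 minus spt16-1, log2, x axis) of the measured members of 12 gene lists, with the number of genes in parentheses; filled points passed the test, open points did not, and black bars are list medians. Members of the rapid stress list lie mostly right of 0 and the cold and iron lists mostly left, while the organelle lists are narrow and close to 0.

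The level in Col-0 mostly lay on the side of the lower mutant. The distances from both mutants to Col-0 share the same 3 Col-0 arrays, so the counts below are a description. Among the 62 genes higher in ssrp1-2, the Col-0 mean was nearer to spt16-1 in 57 (91.9%). Among the 37 genes lower in ssrp1-2, it was nearer to ssrp1-2 in 28 (75.7%). Over all one-gene probe sets it was nearer to spt16-1 in 52.9% and to ssrp1-2 in 47.1%. In most passing genes the mutant with the higher level was the one farther from Col-0. In 35 of the 62 higher genes (56.5%) Col-0 was lower still than spt16-1, as in STZ and AT2G20142. In 21 of the 37 lower genes (56.8%) Col-0 was lower still than ssrp1-2, as in GI and AT1G56300. Over all one-gene probe sets, in either direction, Col-0 lay beyond spt16-1 as seen from ssrp1-2 in 35.8%. It lay beyond ssrp1-2 as seen from spt16-1 in 31.5%. Median levels of the higher genes were 6.62 in ssrp1-2, 5.75 in spt16-1 and 5.34 in Col-0, and those of the lower genes were 5.52, 6.16 and 5.84.

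Exceptions to this pattern were genes in which the mutant with the lower level was the one farther from Col-0, in some of them with both mutants away from it. Among the genes lower in ssrp1-2 these were EXPA15, AT1G47395, AT1G47400, AT4G12980, AT3G56360, AT4G20320, AT5G20447, AT2G29500 and AT1G80130. Among those higher in ssrp1-2 they were AT4G36850, AT5G18600, AT5G39920, AT5G03820 and AT4G28290. All 3 Col-0 values lay between those of the mutants in 9 passing genes, 6 higher and 3 lower. Genes that did not pass could show this too, as SGA2 and the peroxidase gene PRXR1 did. The share over all one-gene probe sets is not given, so the count of 9 is a description only. AT4G36850 had 8.62, 8.71 and 8.88 in ssrp1-2, against 7.70, 7.63 and 7.90 in spt16-1 and 8.6, 8.51 and 8.23 in Col-0. Col-0 thus lay just under ssrp1-2, and spt16-1 was the low genotype (difference 0.99, adjusted p = 0.00943, and 0.0517 without spt16-1 replicate 1). AT2G39850 had 8.41, 8.36 and 8.36 in ssrp1-2, against 7.35, 7.41 and 7.54 in spt16-1 and 7.85, 7.72 and 7.65 in Col-0 (difference 0.94, adjusted p = 0.00201). In AT2G39850 the mutants departed from Col-0 on opposite sides. AT2G28010 did so the other way round, with 4.17, 4.16 and 4.33 in ssrp1-2, against 5.41, 5.55 and 5.24 in spt16-1 and 4.47, 4.51 and 4.61 in Col-0 (difference -1.18, adjusted p = 0.002). AT3G10530 had means of 5.98 in ssrp1-2, 6.55 in spt16-1 and 6.21 in Col-0 (difference -0.57, adjusted p = 0.012), and lost its call without ssrp1-2 replicate 2 or spt16-1 replicate 1 or 3 (up to 0.0595).

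**Figure D5:**
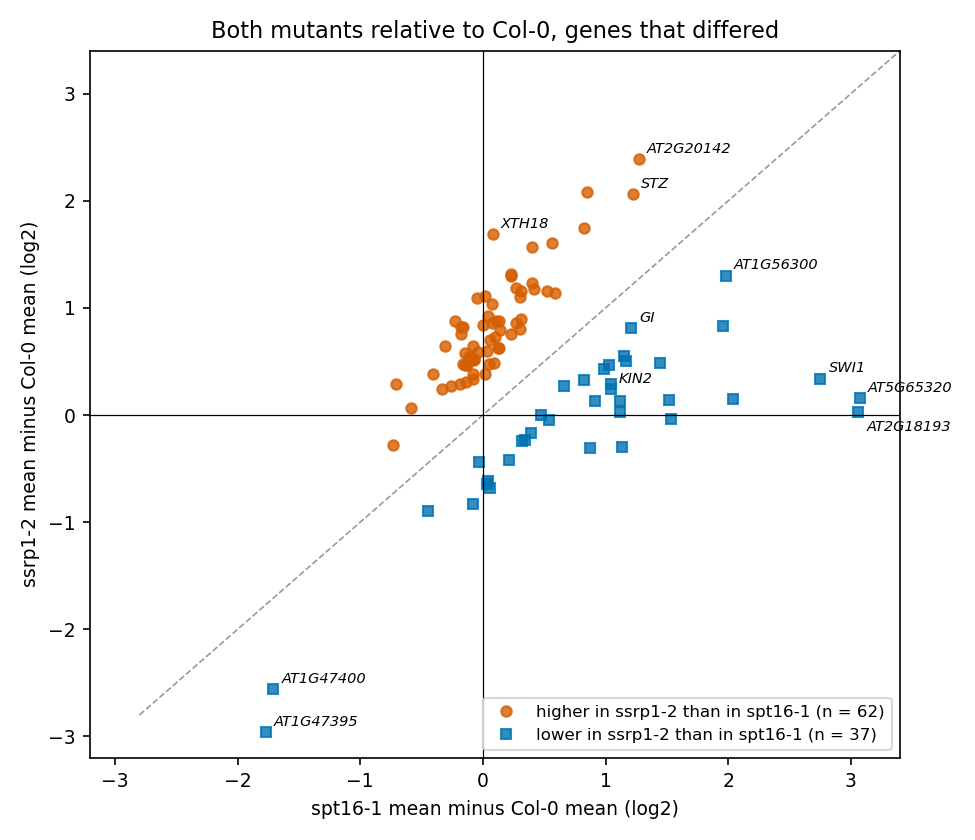
The 99 passing genes, with the spt16-1 mean minus the Col-0 mean on the x axis and the ssrp1-2 mean minus the Col-0 mean on the y axis (both log2); orange circles were higher in ssrp1-2 (62) and blue squares lower (37), and the dashed line marks equal levels in the mutants. Both axes use the same Col-0 arrays. SWI1, AT5G65320 and AT2G18193 lie far right near the horizontal zero line, and AT1G47395 and AT1G47400 lie low on both axes.

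Passing genes were spread over all 5 nuclear chromosomes, with 17 higher and 11 lower genes on chromosome 1, 12 and 8 on chromosome 2, 12 and 3 on chromosome 3, 9 and 6 on chromosome 4, and 12 and 9 on chromosome 5. That is 0.653%, 0.78%, 0.444%, 0.608% and 0.551% of the one-gene probe sets on them, against 0.592% over all. AT1G47395 and AT1G47400 were the single pair of passing genes adjacent to each other in the RefSeq annotation. The genes next to the 15 with the largest differences upward had a median difference of 0.05 (12 measured, none passing), with AT5G41750, next to AT5G41740, the highest at 0.68 (adjusted p = 0.0577). Those next to the 15 with the largest differences downward had a median of 0.02 (19 measured), and none passed apart from the AT1G47395 and AT1G47400 pair. Gene length had medians of 2179 bases for the higher genes, 1863 for the lower and 1912 over all one-gene probe sets with a RefSeq match.

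Besides the genes above, 5 further passing genes without a symbol held their call in each of the 16 alternative fits that included them. AT1G02660 had 8.63, 8.58 and 8.55 in ssrp1-2, against 7.59, 7.87 and 7.65 in spt16-1 and 7.54, 7.73 and 7.73 in Col-0 (difference 0.88, adjusted p = 0.00463). In that gene the ssrp1-2 arrays stood apart from the other 6. AT2G34930 (0.83, adjusted p = 0.00386), AT2G44500 (0.80, 0.00712) and AT3G04640 (0.77, 0.00668) were also higher in ssrp1-2. AT1G07050 was lower, with 3.42, 3.54 and 3.49 in ssrp1-2, against 4.23, 4.29 and 4.27 in spt16-1 and 3.52, 3.35 and 3.19 in Col-0 (difference -0.78, adjusted p = 0.00705). Its spt16-1 arrays were the ones apart. In all, 22 genes kept their call in every such fit, 13 higher and 9 lower, and 29 of the 99 lost it without any 1 mutant array. Of the 99 genes 16 carried a gene symbol and 83 a locus tag alone, so the functions described above cover only a small share of the differences.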

How the data were processed

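The authors deposited log2 values, 1 for each array and probe set. Per the submitters' processing notes, they come from RMA in Affymetrix Expression Console 1.3. All arrays share one scale after RMA, so a change in total RNA would not show. Of 28501 probe sets, 16722 had exactly 1 gene in the platform annotation, 759 several and 11020 none; 16574 of the first matched RefSeq (TAIR10.1), which gave names, neighbours and gene lengths. The contrast ssrp1-2 minus spt16-1 was tested two-sided by limma 3.58.1 (R 4.3.3; lmFit, eBayes) in 1 fit of 9 arrays. Residual degrees of freedom were 6, prior ones 2.76, and the moderated SD had a median of 0.135. P-values were adjusted by the Benjamini-Hochberg method over all probe sets. The test was checked on simulated data. The number of arrays limits the precision. Gene lists were described by counts and medians, with 1 probe set per gene and no set test. Their members were found by name, and 1826 of the 16722 one-gene probe sets carried a symbol, so most lists were measured only in part. The comparison, the gene lists and the genes named were chosen with earlier results of these data known. Named were the 15 higher and 15 lower passing genes with the largest differences, up to 4 passing members per list or its member with the smallest p, and up to 5 genes with all Col-0 values between the mutants; others were chosen after their values were seen. Alternatives were a fit of the mutant arrays alone, a replicate block, an intensity trend, robust and unmoderated tests, array weights, other scalings, filters on low values and on duplicate probe sets, a 2-fold minimum and leaving out each mutant array.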

Additional observations from a re-analysis of the deposited data

How the results depend on the processing

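Of 99 one-gene probe sets that passed, the fit of the mutant arrays alone left 34, the replicate block 50, the unmoderated test 45 and a 2-fold minimum 22, and the intensity trend gave 220. Leaving out 1 mutant array gave 38 to 58. Over all probe sets, with 238 passing, these counts were 80, 117, 123, 46 and 497, and 91 to 128 without 1 array. The 2-fold minimum and the left-out arrays are stricter or smaller by construction, and the cause was not tested for the other settings. Robust moderation (94), array weights (99), centring (101), quantile scaling (100), the filter on low values (137) and the removal of duplicate probe sets (106) stayed within 1.5 times of 99. The replicate number is shared between genotypes in the labels, but same-numbered ssrp1-2 and spt16-1 arrays did not deviate together (r = -0.00308, 0.0322 and 0.00352, against -0.0576 to 0.0539 for different numbers), so the number was not treated as pairing. For named genes, 709 of 772 values under the other settings kept their direction and side of the threshold, 61 no longer passed, 2 newly passed and 0 changed sign; without 1 array the figures were 352, 114, 2 and 0 of 468. Several of the other settings leave the mean difference itself unchanged, so signs could not turn in them. Levels under 3.13 were not shown to be above background, which limits AT2G18193, AT5G65320, AT2G04050, AT2G01300 and AT1G77640.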
